A study of Mus musculus with 32 samples.

Results

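Described here are 9 genes with which cells detect foreign or misplaced double-stranded RNA: the oligoadenylate synthetase (OAS) family members Oas1a, Oas2, Oas3, Oasl1 and Oasl2, the RIG-I-like receptors Ifih1, Ddx58 and Dhx58, and the RNA-activated kinase Eif2ak2. Their rows were taken by gene symbol, and the list was drawn up with earlier results of these data known. All 9 were found in each of the 2 deposited transcript tables, among 13704 genes listed in at least 1 of the tables. Of these, 13377 are listed for females and 11999 for males. All transcripts of a gene were summed.

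The 32 samples are spinal cord microglia, the resident macrophages of the nervous tissue, purified from mice by fluorescence-activated sorting and labelled day 14. Every sample has the same genotype label, Cx3Cr1-Cre;Rosa26-iDTR. Here a tamoxifen-activated Cre recombinase, driven by a gene of microglia and some other myeloid cells, turns on a receptor for diphtheria toxin, and the toxin kills the cells that carry it. Samples labelled "Depletion" are called repopulated, for the microglia that return, and samples labelled "No depletion" resident. Because the descriptions name resident samples Wt or WT, and depleted samples Dt (females) or iDTR (males), the effects of repopulation, toxin and genotype cannot be told apart. Both states were sampled without fracture and with fracture ("Injury"). Resident against repopulated, the females number 4 against 3 when unfractured and 4 against 4 when fractured, and the males 3 against 2 and 5 against 7. A company prepared the female RNA and ultra-low input libraries; the male RNA went through RNeasy Plus Micro, SMART-Seq v4 and Nextera DNA Flex. Sex and preparation are thus one split, the tables were fitted apart, and the difference between them was not tested. Separate animals are not named for the samples of a group, so the spread behind each p-value is that between samples and may be technical.

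Interferons bind receptors on the cell surface, and transcription factors that include Stat2 and Irf9 then raise a common set of antiviral genes that includes the 9 described here. Oas1a, Oas2 and Oas3 make short oligoadenylate chains, which serve as a second messenger, when they meet double-stranded RNA. Oasl1 and Oasl2 are related proteins with ubiquitin-like domains: Oasl1 is known to hold back translation of Irf7, and Oasl2 retains synthetase activity. Ddx58 encodes RIG-I and Ifih1 encodes MDA5, helicases that signal from cytosolic RNA through the mitochondrial adaptor Mavs to interferon production. Dhx58 encodes LGP2, which lacks the signalling domain and modulates the other two. Eif2ak2 encodes PKR, which phosphorylates the translation initiation factor eIF2 alpha when it binds double-stranded RNA.

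In GRCm38 coordinates, Oas1a (chr5:120896256-120907521, minus strand), Oas2 (chr5:120730333-120749853, minus) and Oas3 (chr5:120753098-120777661, minus) lie in 1 cluster on chromosome 5, and Oasl2 (chr5:114896936-114912234, plus) and Oasl1 (chr5:114923240-114937915, plus) next to each other elsewhere on it. Ifih1 is at chr2:62595798-62646255, Ddx58 at chr4:40203773-40239828, Dhx58 at chr11:100694884-100704271 and Eif2ak2 at chr17:78852564-78882573, all on the minus strand.

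As the levels of the 9 genes varied together across libraries (given further on), their promoters are shown where they hold a repeat made of GAAA, any 2 bases and GAAA, the core of the element bound by the interferon-induced factor complex. RefSeq promoters of GRCm38.p6, from 250 bases before to 50 after the annotated start, were found for 7 of the 9 genes; Oas2 and Dhx58 had no entry. On either strand, 5 of the 7 held the repeat, against 3.44% of the 32851 promoters of the same length. In the lines below, which read 5′ to 3′ on the gene's strand, capitals mark the repeat (or its reverse complement, for Ddx58). The windows run over 60 bases where the repeat lies before the start and over 30 bases where it lies after it.
Oas1a, chr5:120907526-120907585, minus strand: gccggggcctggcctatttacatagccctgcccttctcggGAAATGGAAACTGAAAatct
Oas3, chr5:120777700-120777759, minus strand: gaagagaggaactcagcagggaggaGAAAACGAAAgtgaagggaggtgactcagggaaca
Ifih1, chr2:62646206-62646235, minus strand: gagaagagaatcGAAACAGAAAccgatctg
Ddx58, chr4:40239804-40239833, minus strand: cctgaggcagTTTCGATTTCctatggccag
Eif2ak2, chr17:78882535-78882564, minus strand: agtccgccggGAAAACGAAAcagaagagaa
Oas1a held 2 overlapping copies, 20 to 11 and 14 to 5 bases before the start, and Oas3 a copy 75 to 66 bases before it. In Ifih1, Ddx58 and Eif2ak2 the copy lay within the transcribed part, at bases 33 to 42, 3 to 12 and 19 to 28. These letters were not in the windows of Oasl1 and Oasl2. A match is a description of sequence; no binding was measured.

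Of the 11 microglia markers looked for, 11 were listed in both tables, with Csf1r at 10800 to 16300 CPM over all libraries. Markers of other cell types were listed in part. Of 13 circulating and border macrophage markers, 8 were listed in females and 9 in males, with Ccr2, Ly6c2, Cd163 and Lyve1 in neither table. Of 17 lymphocyte and granulocyte markers, 4 were listed in each table. Dendritic cell markers were listed for 5 of 9 in females and 3 of 9 in males. Neural and vascular markers were listed for 10 of 18 and 7 of 18. Some listed ones were abundant, with female means of 1060 CPM for Lyz2 and 434 CPM for Ighm. Library totals were 16438827 to 18654165 estimated counts in females and 5722993 to 33697535 in males. Levels below are CPM (a gene's share of the library's counts, scaled with TMM factors), with changes as log2 fold changes ± standard error from 1 edgeR quasi-likelihood fit per table. A gene is said to have risen or fallen where its Benjamini-Hochberg adjusted p over all genes of the table was below 0.05. In bulk RNA, more cells with a transcript and more transcript per cell cannot be told apart.

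Before the results, 4 libraries need naming. Female resident libraries 1 and 3 without fracture had summed levels of the 9 genes of 1360 and 1250 CPM, against 485 and 659 CPM in libraries 2 and 4 of the group. Male repopulated libraries 6 and 7 with fracture had 898 and 846 CPM, against 235 to 405 CPM in the other 5 libraries of the group, while the repopulated libraries without fracture had 922 and 739 CPM. The calls of the 9 genes in comparisons that include these libraries, and the correlations among the genes, are given with and without them; other gene lists were counted with them.

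**Figure D1:**
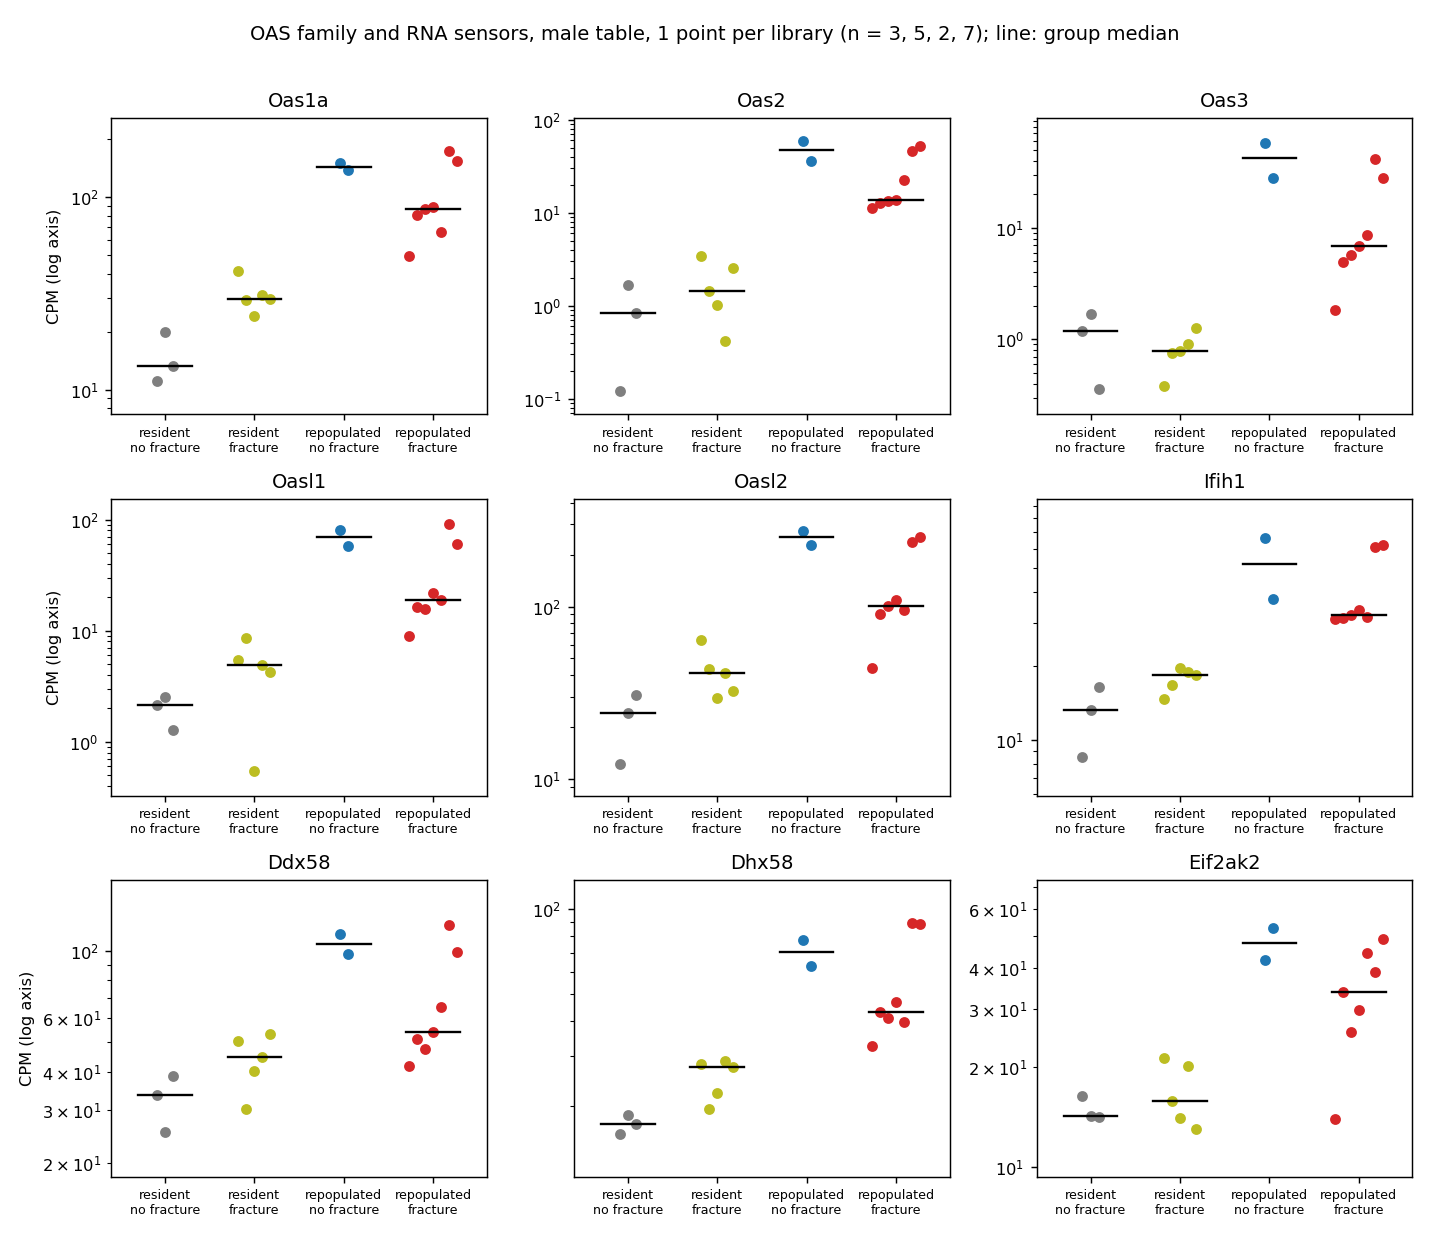
CPM (log axis) of each of the 9 genes in the 17 male libraries, 1 point per library and a line at the group median. For Oas1a, Oas2, Oas3, Oasl1, Ifih1 and Dhx58 all repopulated points lie above all resident ones. In the repopulated group with fracture, libraries 6 and 7 lie apart from the others for most genes.

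In male microglia without fracture, all 9 genes rose with repopulation, and in all 9 both repopulated libraries lay above the 3 resident ones. Genes called in this comparison made up 7.42% of the 11999 tested (4.7% called higher), and genes with every repopulated library above every resident one made up 17%, so with 2 libraries against 3 the absence of overlap by itself says little. Oas2, Oas3 and Oasl1, at 0.12 to 2.52 CPM in resident cells, had log2 changes of 5.205 to 6.10, and the receptors and PKR, at 8.53 to 38.8 CPM in resident cells, had changes of 1.66 to 2.04. The median log2 change of the 9 genes was 3.33, against −0.03 for all genes.

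Oas2, the synthetase with a duplicated catalytic unit, had 0.12, 1.68 and 0.83 CPM in the 3 resident libraries without fracture, which rest on 3 to 21 counts each, and 59 and 36.2 CPM in the repopulated ones. Its log2 change was 6.10 ± 0.94 (adjusted p = 0.000623, edgeR), the largest of the 9 in this comparison. Oas3, the largest synthetase, had 1.2, 1.68 and 0.356 CPM in resident and 57.3 and 27.8 CPM in repopulated libraries, a log2 change of 5.45 ± 1.06 (adjusted p = 0.00343, edgeR). Both genes thus went from 3 to 30 counts per library to 306 counts or more. Oas1a, already present in resident cells at 11.1, 20 and 13.3 CPM, reached 150 and 139 CPM, with a log2 change of 3.33 ± 0.42 (adjusted p = 9.32e-05, edgeR).

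Among the OAS-like genes, Oasl1 had 2.15, 2.52 and 1.26 CPM in resident and 80.7 and 58.4 CPM in repopulated libraries, a log2 change of 5.205 ± 1.06 (adjusted p = 0.00625, edgeR). Oasl2 had 12.2, 24 and 30.6 CPM in resident and 276 and 228 CPM in repopulated libraries, a log2 change of 3.51 ± 0.62 (adjusted p = 0.00272, edgeR). Oasl2 was the most abundant of the 9 per transcript length in each of the 8 groups of both tables, with a median of 20.8 TPM (a level per transcript length) in male resident and 227 TPM in male repopulated libraries without fracture.

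The receptors and the kinase had smaller log2 changes. Ifih1 (MDA5) had 8.53, 13.3 and 16.4 CPM in resident and 66.4 and 37.5 CPM in repopulated libraries (log2 change 2.03 ± 0.34, edgeR adjusted p = 0.000617). Ddx58 (RIG-I) had 33.5, 25.4 and 38.8 CPM against 113 and 97.2 CPM (1.68 ± 0.36, edgeR adjusted p = 0.00501). Dhx58 (LGP2) had 15.8, 18.5 and 17.2 CPM against 77.8 and 62.6 CPM (2.04 ± 0.34, edgeR adjusted p = 0.000661). The 3 receptors were thus 3.2 to 4.11 times as high in repopulated as in resident cells by the fit. Eif2ak2 (PKR) had 16.4, 14.3 and 14.1 CPM against 42.2 and 52.6 CPM (1.66 ± 0.34, edgeR adjusted p = 0.00369), and its call was lost without repopulated library 2 (edgeR adjusted p = 0.0552), when a single repopulated library is assumed to vary like the other groups.

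With fracture, 8 of the 9 genes rose with repopulation in males, where 4.91% of all genes were called (3.03% higher), and for 6 of the 9 all 7 repopulated libraries lay above all 5 resident ones, as for 2% of all genes. Oas2 had 0.417 to 3.44 CPM (median 1.43) in the resident libraries. In the repopulated ones it had 11.2 to 51.8 CPM (median 13.8), with a log2 change of 3.84 ± 0.60 (adjusted p = 0.00107, edgeR). Oas3 had 0.382 to 1.27 CPM in resident and 1.83 to 41.7 CPM in repopulated libraries, medians 0.794 and 6.91, with a log2 change of 4.08 ± 0.74 (adjusted p = 0.00311, edgeR). For both genes the lowest repopulated library was above the highest resident one.

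Oas1a (24.1 to 41.3 CPM in resident, 49.4 to 173 CPM in repopulated libraries) changed by 1.69 ± 0.27 (adjusted p = 0.00131, edgeR) and Oasl1 (0.55 to 8.65 against 8.87 to 90.8 CPM) by 2.81 ± 0.67 (adjusted p = 0.0249, edgeR). Ifih1 changed by 1.20 ± 0.22 (adjusted p = 0.00265, edgeR), from 14.7 to 19.7 CPM up to 31.1 to 62.2 CPM, and Dhx58 by 1.12 ± 0.23 (adjusted p = 0.00444, edgeR), from 19.4 to 28.7 CPM up to 32.6 to 89.4 CPM. These 6 genes are the ones without overlap. Oasl2 (1.66 ± 0.41, edgeR adjusted p = 0.0291) and Eif2ak2 (0.99 ± 0.23, edgeR adjusted p = 0.0121) were called although repopulated library 1, with 44.1 and 14 CPM, lay within the resident range. Ddx58, at 41.8 to 121 CPM against 30.1 to 53.4 CPM, had a log2 change of 0.65 ± 0.23 and did not pass (adjusted p = 0.135, edgeR; 0.0561 to 0.323 with 1 library left out).

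Without repopulated libraries 6 and 7, a choice made after seeing the data, 7 of the 9 genes were called with fracture, as 3.12% of all genes were in that fit. Oas2 then changed by 3.10, Oas3 by 2.77 and Oasl1 by 1.78, and Eif2ak2 (0.81, edgeR adjusted p = 0.0691) joined Ddx58 among those that did not pass. Of the 12 fits that left out 1 library each, Oasl1 lost its call in 3, those without resident library 1, 4 or 5 (edgeR adjusted p 0.0564 to 0.0696). Oasl2 lost it in 4, those without resident library 2, 3, 4 or 5 (edgeR adjusted p 0.0644 to 0.0792). The male labels carry V numbers whose meaning is not given; all male libraries without fracture are numbered under 80, and repopulated libraries 6 and 7 with fracture over 98. Within the libraries numbered under 80 (3 resident and 3 repopulated with fracture) the log2 changes were 2.71 for Oas2, 2.66 for Oas3, 1.20 for Oas1a and 0.89 for Ifih1. Within those numbered over 98 (2 and 4) the first 3 were 4.52, 4.28 and 1.99. All 9 changes were positive in both subsets. With edgeR 0 of the 9 passed in either, where 39 and 43 of all genes (0.329% and 0.36%) were called. In the subsets 6 and 9 of the 9 had an unadjusted p under 0.05. The shares of all genes under 0.05 in the subsets are not given here, so these counts cannot be weighed. In the 4-group fit with all libraries 9 had such a p with fracture, against 15.7% of all genes.

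Over the mean of both fracture states all 9 genes rose in males, where 12.8% of genes were called (7.14% higher), from 1.16 ± 0.21 for Ddx58 to 4.97 ± 0.57 for Oas2 (edgeR adjusted p 3.1e-06 to 0.000713). All 9 were called there without libraries 6 and 7 too, where 11.3% of all genes were.

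**Figure D2:**
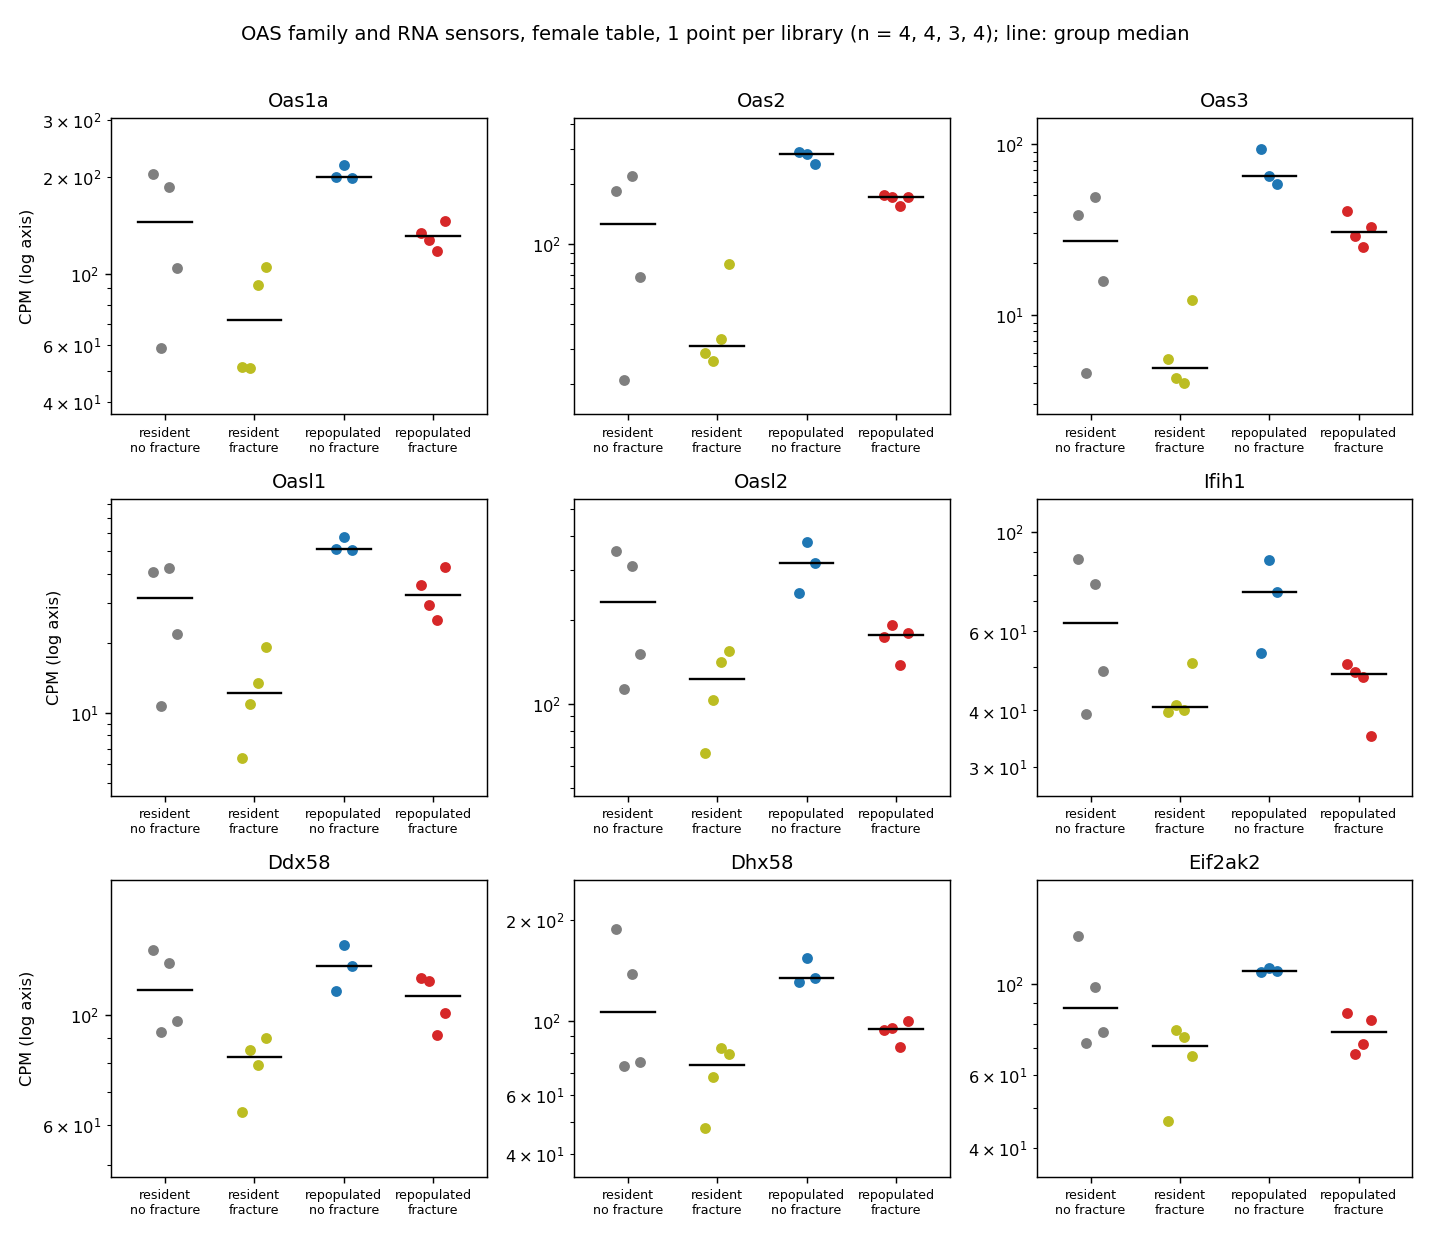
CPM (log axis) of each of the 9 genes in the 15 female libraries, 1 point per library and a line at the group median. Within resident libraries without fracture, libraries 1 and 3 lie near the repopulated ones, and libraries 2 and 4 lie lower.

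In female microglia all 9 genes had positive log2 changes with repopulation in both fracture states, and Oas3, Oas2 and Oasl1 had the highest values, but calls were few. None of the 9 passed without fracture, where edgeR called 2.53% of the 13377 genes (1.56% higher). DESeq2 called 0 (5.05% of all genes), and 1 had an unadjusted p under 0.05, as 15.3% of all genes did. None passed with fracture, where 2.35% of genes were called (1.27% higher); DESeq2 called 3 (5.08% of all genes), and 5 had an unadjusted p under 0.05, against 13.7% of all genes. Over the mean of both fracture states, where 8.52% of genes were called (4.43% higher), 3 rose: Oas3 (1.85 ± 0.42, edgeR adjusted p = 0.0159), Oasl1 (1.14 ± 0.28, edgeR adjusted p = 0.0214) and Oas2 (1.58 ± 0.42, edgeR adjusted p = 0.0374). The call of Oas2 was lost in 11 of the 15 fits that left out 1 library (edgeR adjusted p 0.0149 to 0.0787). Those of Oas3 and Oasl1 held in all 15.

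Oas2 had 183, 20.8, 219 and 68.1 CPM in the female resident libraries without fracture and 287, 281 and 251 CPM in the repopulated ones. With fracture it had 28.6, 25.9, 33.6 and 79.9 CPM in resident and 177, 171, 154 and 171 CPM in repopulated libraries. Within each fracture state the repopulated libraries lay within a narrow band and above every resident one, but those with fracture lay below resident libraries 1 and 3 without fracture. The resident libraries without fracture differed among themselves by more than those of the other 3 female groups: the SD of Oas2 there was 1.56 on the log2 scale, against a median of 0.31 over all genes, and 0.11 in the repopulated libraries. The log2 change was 1.15 ± 0.61 without fracture (adjusted p = 0.41, edgeR) and 2.00 ± 0.59 with fracture (adjusted p = 0.107, edgeR).

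Oas3 had 38.5, 4.54, 49.1 and 15.8 CPM in resident libraries without fracture and 93.2, 65.1 and 58 CPM in repopulated ones, a log2 change of 1.42 ± 0.60 (adjusted p = 0.279, edgeR). With fracture it had 5.54, 4.28, 3.97 and 12.2 CPM in resident and 40.6, 28.8, 24.9 and 32.7 CPM in repopulated libraries, a log2 change of 2.29 ± 0.60 (adjusted p = 0.0689, edgeR), the largest female change of the 9. Oasl1 had 40.8, 10.7, 42.4 and 22.1 CPM against 51, 57.9 and 50.6 CPM without fracture (0.88 ± 0.41, edgeR adjusted p = 0.329). With fracture it had 6.38, 11, 13.5 and 19.3 CPM against 35.7, 29.3, 25.4 and 42.9 CPM (1.41 ± 0.39, edgeR adjusted p = 0.0802). These 3 genes had every repopulated library above every resident one in both fracture states.

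The absence of overlap held for 3 of the 9 genes without fracture, as for 6.87% of all genes, and for 6 of the 9 with fracture, as for 6.26% of all genes. The other 3 without overlap with fracture were Oas1a (51.1 to 105 CPM against 117 to 146 CPM, 0.81 ± 0.34), Ddx58 (63.9 to 89.9 against 91.4 to 119 CPM, 0.43 ± 0.14) and Dhx58 (47.8 to 83.3 against 83.6 to 100 CPM, 0.42 ± 0.27). In the last, the highest resident and the lowest repopulated library nearly touched. Ifih1 had the smallest change with fracture, 0.08 ± 0.22, and changed by 0.18 ± 0.24 without it, where Ddx58 had the smallest, 0.15 ± 0.15. The sign of the Ifih1 change with fracture turned (−0.01) when CPM were scaled to library totals alone. Eif2ak2, at 71.9 to 131 CPM against 107 to 109.3 CPM without fracture, changed by 0.19 ± 0.19.

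Without resident libraries 1 and 3, a choice made after seeing the data, 6 of the 9 genes were called in females without fracture, as 5.03% of all genes were in that fit. Oas3 changed by 2.82, Oas2 by 2.61, Oasl1 by 1.69, Oas1a by 1.32, Oasl2 by 1.26 and Dhx58 by 0.91. Only 2 resident libraries remain in that fit, and the 2 removed were noticed for their high levels of these same genes, so this count describes what they weigh and is no separate evidence. The count for the mean of both fracture states was then 8 of 9, without Ifih1, where 10.1% of all genes were called. The 3 male resident libraries without fracture had summed levels of at most 133 CPM. As sex and preparation are one split and the tables were scaled apart, this level cannot be set against the female ones.

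**Figure D3:**
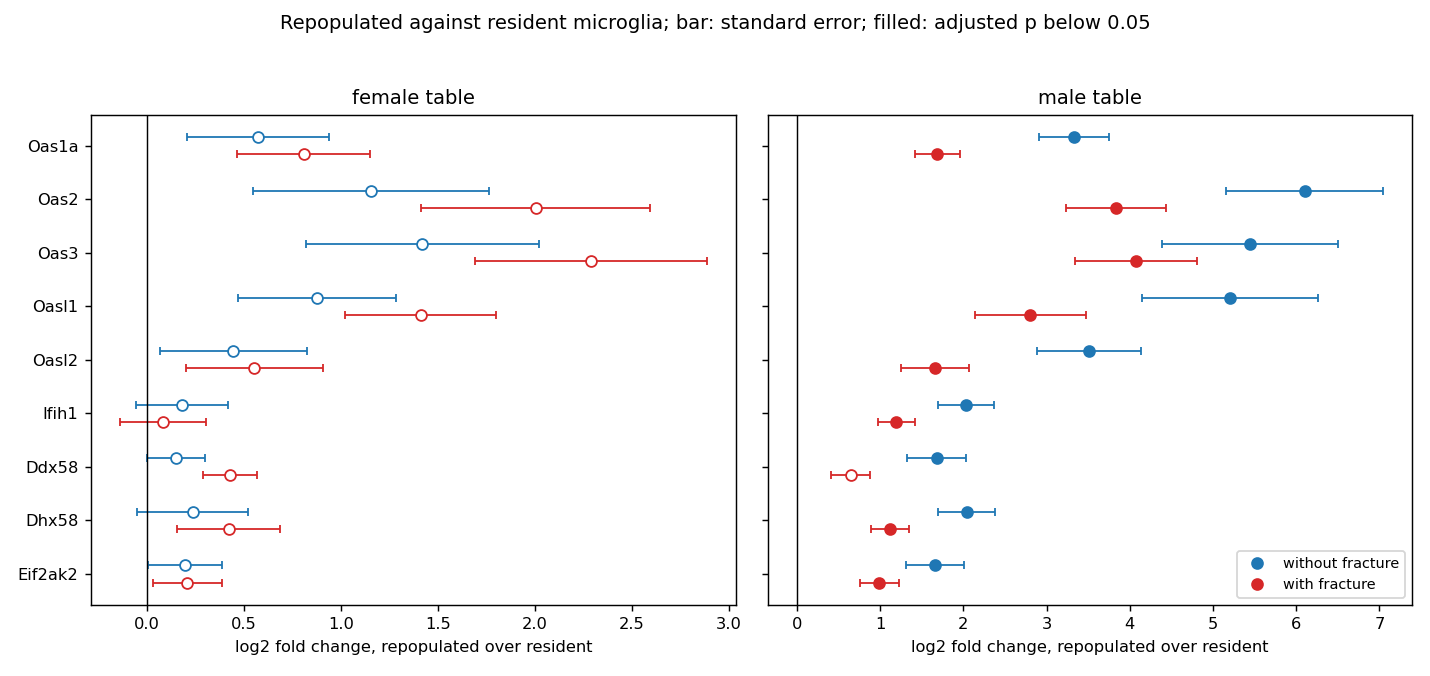
Log2 fold change of repopulated over resident microglia for each of the 9 genes, without and with fracture, in females (left) and males (right); bars are standard errors and filled points have an edgeR adjusted p below 0.05. The horizontal scales differ between panels: Oas2 without fracture is at 1.15 on the left and 6.10 on the right.

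Fracture alone called none of the 9 genes in either table in the 4-group edgeR fit with all libraries. Some other edgeR fits, given further on, did call members. DESeq2 called none either (0.0299% and 0.665% of all genes in female and 0.1% and 0.325% in male resident and repopulated microglia). In female resident microglia all 9 had a negative log2 change with fracture, from −2.05 for Oas3 to −0.51 for Ddx58, with a median of −0.88 against −0.01 for all genes. All 9 had an unadjusted p under 0.05, as 4.93% of all genes did, but edgeR adjusted p-values were 0.884 to 0.94 and 0% of genes were called. Ddx58 alone did not overlap, with 63.9 to 89.9 CPM with and 92.3 to 135 CPM without fracture (−0.51 ± 0.14), as 1.78% of all genes lay wholly below. The other 8 overlapped: Oas2, for example, had 20.8 and 68.1 CPM in resident libraries 2 and 4 without fracture and 25.9 to 79.9 CPM with fracture. Without libraries 1 and 3 the 9 changes ran from −0.65 to −0.04, and 0 had an unadjusted p under 0.05 with edgeR.

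In female repopulated microglia all 9 changes with fracture were negative too, from −1.18 for Oas3 to −0.23 for Ddx58, and 8 of the 9 had every fractured library below every unfractured one, as 6.2% of all genes did. With edgeR 0% of genes were called, and 3 of the 9 had an unadjusted p under 0.05 (Oasl2, Ifih1 and Eif2ak2), against 10.5% of all genes. Oas1a had 200, 218 and 198 CPM without and 134, 128, 117 and 146 CPM with fracture (−0.64 ± 0.36, edgeR adjusted p = 0.565). Oasl2 had 248, 381 and 320 CPM without and 173, 191, 138 and 180 CPM with fracture (−0.89 ± 0.38, edgeR adjusted p = 0.45). Eif2ak2 had 107, 109.3 and 108 CPM without and 85.3, 67.7, 71.4 and 81.8 CPM with fracture (−0.50 ± 0.19, edgeR adjusted p = 0.419). In these repopulated groups the levels were close within a group, and the common estimate of spread is set by the 4 female groups together. Whether this bears on the calls was not tested. When only the 2 repopulated groups were fitted, 5 genes were called lower with fracture, where 0.649% of all genes were called: Oas1a (edgeR adjusted p = 0.0166), Oas2 (0.00932), Oas3 (0.0326), Oasl2 (0.0342) and Dhx58 (0.0326). A difference of the fracture change between resident and repopulated females passed for none of the 9 by the interaction test (edgeR adjusted p = 1 for each, with 0% of genes called). None had an unadjusted p under 0.05, against 3.69% of all genes. Without resident libraries 1 and 3 again none was called (0% of all genes), and 1 of the 9 values was positive, against 8 with all libraries. In that fit 2 had an unadjusted p under 0.05, but the share of all genes under 0.05 there is not given here.

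In male resident microglia the sign was the opposite for 8 of the 9 genes, and none passed (edgeR adjusted p = 1 for each; 1 with an unadjusted p under 0.05, against 4.26% of all genes), where 0.00833% of genes, a single one, were called. Oas1a had 11.1, 20 and 13.3 CPM without and 41.3, 29.2, 24.1, 31 and 29.6 CPM with fracture, a log2 change of 1.112 ± 0.35, with no overlap. Dhx58, at 15.8, 18.5 and 17.2 CPM without and 28, 19.4, 22.1, 28.7 and 27.4 CPM with fracture (0.55 ± 0.28), did not overlap either. Over all genes, 2.36% lay wholly above with fracture. Oas3, with 5 to 30 counts a library, had the only negative change (−0.25 ± 0.91).

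In male repopulated microglia all 9 changes with fracture were negative (−1.62 for Oas3 to −0.36 for Ifih1), and all 9 genes overlapped, where 3.52% of all genes lay wholly below. None passed (edgeR adjusted p 0.579 to 0.816, again with 0.00833% of genes called), and 1 had an unadjusted p under 0.05, against 8.29% of all genes. For Oas3 the 2 libraries without fracture had 57.3 and 27.8 CPM, libraries 1 to 5 with fracture 1.83, 4.9, 5.7, 6.91 and 8.64 CPM, and libraries 6 and 7 had 41.7 and 27.7 CPM. Oasl1 showed the same order, with 80.7 and 58.4 CPM without fracture, 8.87 to 21.8 CPM in libraries 1 to 5 and 90.8 and 59.9 CPM in libraries 6 and 7. Without libraries 6 and 7, 6 genes were called lower with fracture, where 1.31% of all genes were called: Oas3 (−2.93), Oasl1 (−2.10), Oasl2 (−1.52), Ddx58 (−1.02), Oas1a (−0.96) and Dhx58 (−0.79). The 2 were left out because of these genes' levels, so the calls are a description.

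The male interaction, the change with repopulation under fracture minus that without, was negative for all 9 genes, with a median of −1.37 and values from −2.40 for Oasl1 to −0.67 for Eif2ak2. Of these, 6 had an unadjusted p under 0.05, as 7.38% of all genes did, and 0 were called with edgeR (adjusted p 0.398 to 0.895), with 0.00833% of genes called. Without libraries 6 and 7, 5 of the 9 were called, where 0.975% of all genes were: Oasl1 (−3.41, edgeR adjusted p = 0.0356), Oasl2 (−2.44, 0.0175), Oas1a (−2.07, 0.00259), Ddx58 (−1.43, 0.0141) and Dhx58 (−1.34, 0.0112). The calls thus depended on these 2 libraries, which were left out because of their levels of these genes.

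**Figure D4:**
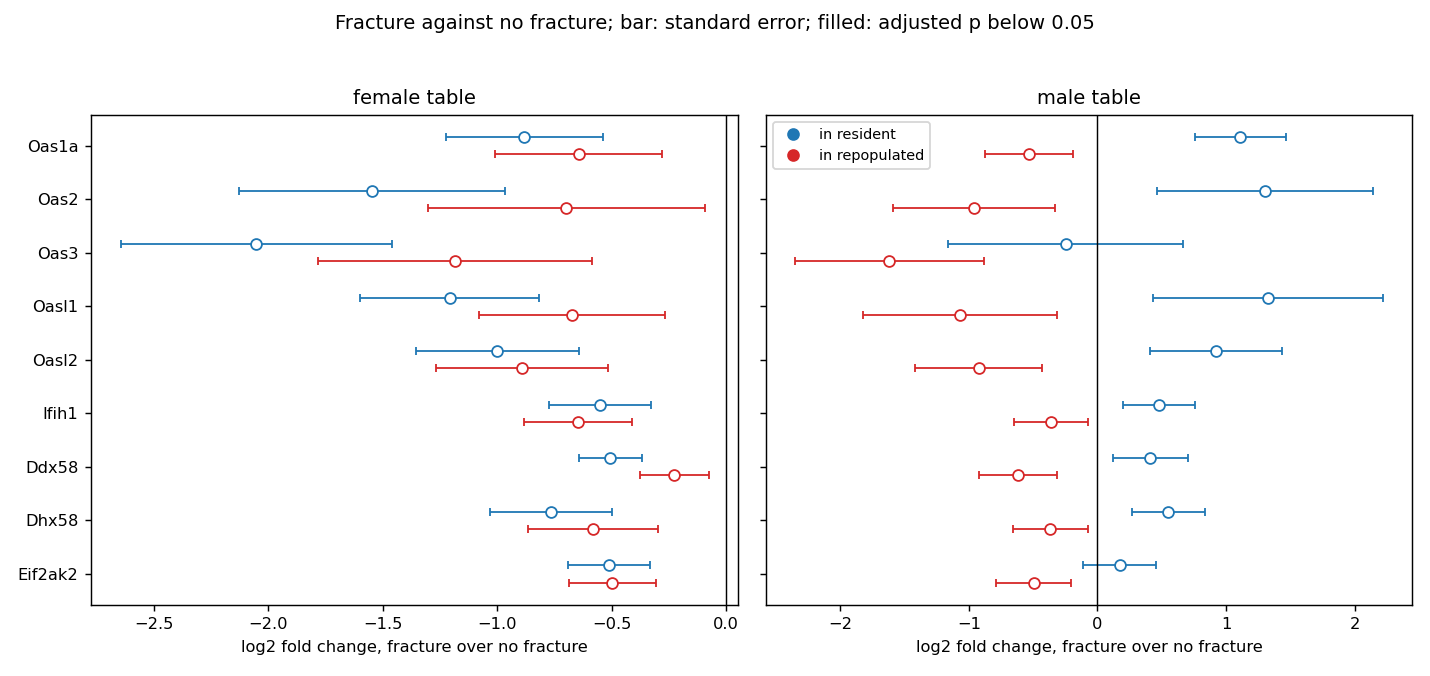
Log2 fold change of fracture over no fracture for each of the 9 genes, in resident and in repopulated microglia, in females (left) and males (right); bars are standard errors. No point is filled, as none had an edgeR adjusted p below 0.05; all female points and all male repopulated points lie below 0, and 8 of the 9 male resident points above it.

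Per transcript length, the order of the 9 genes was similar between groups, with Oasl2 highest and Oas3 lowest in every group. In female resident libraries without fracture the medians were 243 TPM for Oasl2, 156 for Oas1a, 106 for Dhx58, 81.3 for Ddx58, 73.4 for Oas2, 55.2 for Eif2ak2, 29.7 for Oasl1, 27.5 for Ifih1 and 11.8 for Oas3. Their ranges overlapped between most neighbours: Oasl2 spanned 122 to 393 TPM and Oas1a 65.7 to 221 TPM, and Oasl1 (10.5 to 38.8) and Ifih1 (20.2 to 39.3) could not be ordered. The places of Oas2 and Oasl1 moved most. Oas2 was the eighth of the 9 in male resident libraries with fracture (0.668 TPM) and the third in female repopulated libraries without fracture (153 TPM). In the latter group the RIG-I-like receptors stood at 136 TPM for Dhx58, 87.1 for Ddx58 and 29.8 for Ifih1.

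For some genes much of the count was assigned to transcripts that are not annotated as coding. For Oasl2, 47.1% of female and 51.2% of male counts were on ENSMUST00000144064.4, annotated as a target of nonsense-mediated decay, and 34.3% and 36.9% on the coding ENSMUST00000031542.12. For Ddx58, 35.6% and 26.4% were on ENSMUST00000137903.7, a processed transcript that covers the 3′ part of the gene, beside 51.6% and 63.5% on the coding ENSMUST00000037907.12. For Oas2, 20.01% and 25.3% were on a transcript with a retained intron. These shares are the authors' estimates from short reads. In female libraries the Oasl2 share of ENSMUST00000144064.4 stayed between 41.4% and 54.1% in all 4 groups, so its level changed with that of the gene. The Ifih1 share of its longest coding transcript, ENSMUST00000028259.11, spanned 60.5% to 90.3% over female and 17.7% to 87% over male libraries. With the most abundant transcript alone in place of the sum, the female Ifih1 change with repopulation under fracture had the opposite sign (−0.01).

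Near-identical copies limit 1 of the 9 genes. Of the 50-base stretches of the Oas1a transcript, 57.6% also occur in Oas1g or Oas1b, so reads can be divided between them, and Oas1a is uncertain as a single gene. Oas1g itself rose in males (5.45 ± 1.01 without fracture, edgeR adjusted p = 0.00252) and over both female fracture states (1.63 ± 0.36, edgeR adjusted p = 0.013). Of the main coding transcripts of the other 8, at most 4.06% was shared with another gene. Dhx58, Eif2ak2 and Oasl1 overlap genes on the opposite strand (Dhx58os; Gm26637 and n-R5s29; Gm13822), and since a stranded count is not stated, reads of these partners cannot be told apart there.

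Over all libraries the 9 genes were positively correlated in every pair. Over the 36 pairs the Pearson correlation of log2 CPM was 0.666 to 0.981 (median 0.859) in the 15 female libraries and 0.783 to 0.973 (median 0.894) in the 17 male libraries, and without the 2 libraries that stood apart in each table the medians were 0.838 and 0.862. With group means removed the range was 0.501 to 0.968 (median 0.796) in females and 0.23 to 0.908 (median 0.662) in males, lowest for Ifih1 and Eif2ak2 in males. Without the libraries that stood apart it was 0.04 to 0.932 (median 0.605) and −0.248 to 0.796 (median 0.313). Within groups the correlations were thus lower, and the lowest male one was negative, once those libraries were left out. Oas2 and Oas3 were the closest female pair. The 5 genes most like the mean of the 9 included, in females, Rnf213 (r = 0.981), Zbp1 (0.981), Ifi206 (0.981) and Ifi204 (0.972) among 9226 genes. In males they were Irf7 (r = 0.991), H2-Q7 (0.987), Ifit3 (0.987), Rtp4 (0.983) and Ccl5 (0.983) among 9036. Without the libraries that stood apart the genes named here had r of 0.97 to 0.989, and Rtp4 and Ccl5 were the ninth and the eighth in males. These are descriptions over libraries that share a table and a scaling. H2, Ifi and Ifit genes have near-identical copies, among which reads may be divided.

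**Figure D5:**
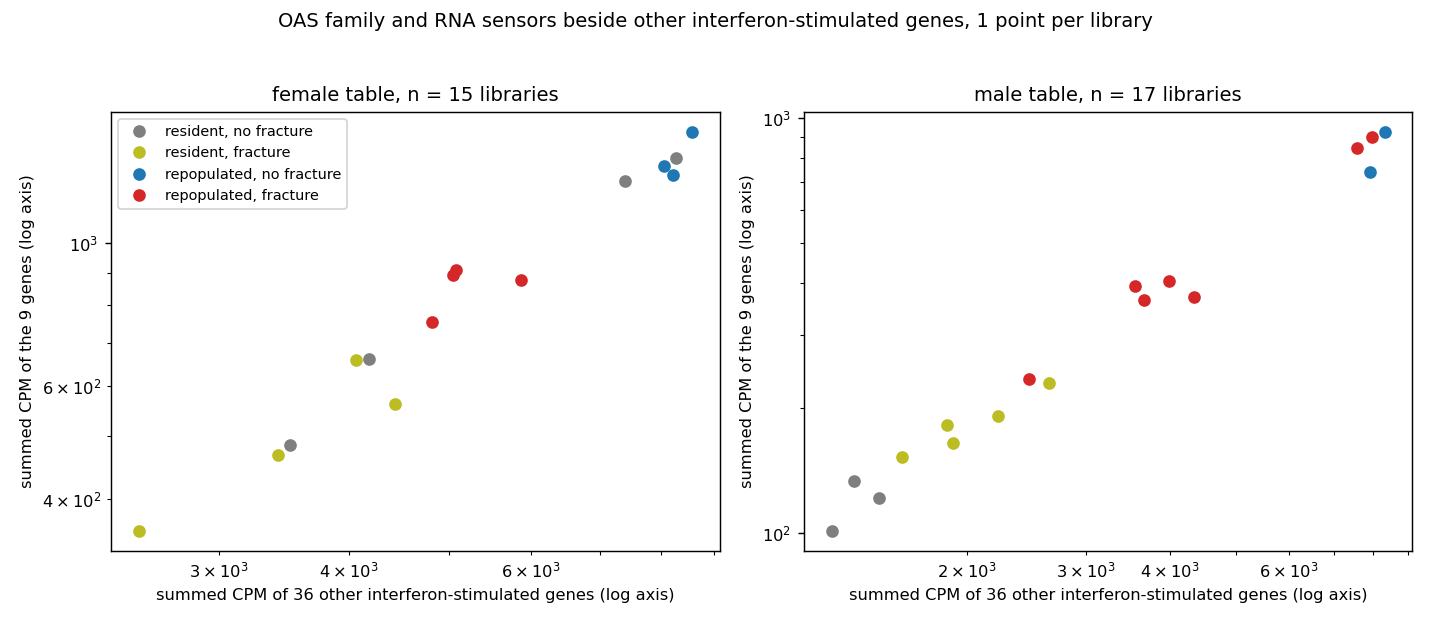
Summed CPM of the 9 genes against summed CPM of 36 other interferon-stimulated genes (both log axes), 1 point per library, 15 female (left) and 17 male (right). Female resident libraries 1 and 3 without fracture (1360 and 1250 CPM) lie with the repopulated ones, and male repopulated libraries 6 and 7 with fracture (898 and 846 CPM) with those without fracture.

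The libraries that stood apart for the 9 genes did so for other interferon-stimulated genes. A list of 36 of them (Isg15, Mx1, Ifit1, Rsad2, Bst2 and others) summed to 8270 and 7390 CPM in female resident libraries 1 and 3 without fracture, against 3510 and 4190 CPM in libraries 2 and 4. They summed to 7970 and 7570 CPM in male repopulated libraries 6 and 7, against 2470 to 4340 CPM in libraries 1 to 5. The integrin gene Itgax, used by dendritic cells and by activated microglia, was also high there, at 47.5 and 117 CPM against 9.14 and 26.6 CPM in females and at 124 and 104 CPM against 25.5 to 55.4 CPM in males.

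Markers of circulating macrophages rose with repopulation too. Over the mean of both fracture states, 6 of the 8 listed ones rose in females and 4 of 9 in males. Of all genes 4.43% and 7.14% were called higher there. Pilra rose by 1.84 ± 0.15 (adjusted p = 3.37e-05, edgeR) in females. Ms4a7 was at 0 to 4.49 CPM in female resident and 2.54 to 44 CPM in female repopulated libraries. The summed level of the list was 544 to 960 CPM in female resident and 1220 to 2230 CPM in female repopulated libraries, and 358 to 984 and 788 to 1960 CPM in males. Within groups the order of the libraries by Ms4a7 and by the 9 genes agreed in some cases and not in others. Ms4a7 was at 1.93 and 4.93 CPM in male repopulated libraries 6 and 7 and at 28.3 and 34.6 CPM in libraries 2 and 3, which were low in the 9 genes, while library 1 was the lowest of the group in both (1.37 CPM of Ms4a7 and 235 CPM of the 9 genes). Of the repopulated male libraries without fracture, library 1 with 922 CPM of the 9 genes had 1.71 CPM of Ms4a7 and library 2 with 739 CPM had 50.9 CPM. Female repopulated library 2 without fracture, with 1490 CPM of the 9 genes, had 2.54 CPM of Ms4a7, the lowest of its group, and library 1 with fracture was the highest of its group in both (44 and 909 CPM). Female resident libraries 1 and 3 without fracture both had more Ms4a7 (4.49 CPM in library 3) than libraries 2 and 4 (at most 0.625 CPM). Of the 11 microglia markers, 1 rose and 5 fell over both fracture states in females and 5 fell in males, P2ry12 by 0.62 and 0.81 on the log2 scale. Of all genes 8.52% and 12.8% were called there in either direction. Of the listed dendritic cell markers, 0 of 5 rose over both fracture states in females. In males 2 of 3 did, Itgax by 2.50 ± 0.32 and Cox6a2 by 1.805 ± 0.28. Of the 4 listed lymphocyte and granulocyte markers, 1 rose (Csf3r) and 3 fell (Ighm, Ighd and Cd79b) over both fracture states in each sex. The log2 change of Ighm was −0.48 in females and −0.44 in males, and that of Csf3r 0.32 and 0.43. The part of the macrophage, microglia, dendritic cell, lymphocyte and granulocyte markers in the repopulation comparisons was not tested.

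Other members of the pathway were taken from lists, of which the number that rose or fell stands beside each. Without fracture, with fracture and over both, 4.7%, 3.03% and 7.14% of all genes were called higher in males. In females these shares were 1.56%, 1.27% and 4.43%. Of the 36 other interferon-stimulated genes, 34 rose without fracture, 28 with fracture and 36 over both in males, and 0, 0 and 3 (Samd9l, Parp12, Ifi44) in females. Their male median log2 change without fracture was 2.58, below the 3.33 of the 9 genes, and the female one with fracture 0.44 against 0.55. In females with fracture 36 of the 36 had a positive change, and 9 an unadjusted p under 0.05, against 13.7% of all genes.

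Between the sensors and interferon lies a chain of adaptors and kinases. Of 34 such genes measured in males, 6 rose and 2 fell without fracture, beside the 7.42% of all genes called there. The risers included Irf7, the interferon-induced factor that amplifies interferon production (4.32 ± 0.71, edgeR adjusted p = 0.00171), Trim25, a ubiquitin ligase that activates RIG-I (1.71 ± 0.34, edgeR adjusted p = 0.00295), and the helicase Ddx60 (2.18 ± 0.44, edgeR adjusted p = 0.00299). Casp8 (−0.45) and Irf5 (−0.31) fell. With fracture 5 rose, beside 4.91% of all genes called, among them Tank (0.79 ± 0.16, edgeR adjusted p = 0.00456). Of 33 measured in females, 1 rose without fracture (Dhx9, 0.62 ± 0.13, edgeR adjusted p = 0.0235), 0 with fracture and 4 over both (Dhx9, Tkfc, Tank, Traf3). Of all genes 2.53%, 2.35% and 8.52% were called in these 3 comparisons. The central adaptor Mavs had log2 changes of −0.23 ± 0.16 without and −0.07 ± 0.10 with fracture in males, and its kinase Tbk1 −0.02 ± 0.18 and 0.03 ± 0.12, none of which passed.

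Of the list of OAS relatives and OAS and PKR pathway partners, 18 genes were measured. In males 2 rose without fracture, Oas1g and Adar, beside 4.7% of all genes called higher. Adar, the RNA-editing enzyme that limits sensing, changed by 1.46 ± 0.36 (edgeR adjusted p = 0.0167). With fracture 1 rose (Oas1g), beside 3.03%. Over both 3 rose (with Ppp1r15a, which reverses PKR's phosphorylation of eIF2), beside 7.14%. In females 0, 0 and 2 rose (Oas1b and Oas1g), beside 1.56%, 1.27% and 4.43%. Of 22 genes of interferon reception, 9 rose and 1 (Ifngr1) fell in males without fracture, beside 7.42% of all genes called. With fracture 4 rose, beside 4.91%, and over both 10 rose and 1 fell, beside 12.8%. In females 1, 0 and 1 rose, in each case Ifnar1, beside 2.53%, 2.35% and 8.52%. In males Stat2, a transcription factor of the interferon response, changed by 2.18 ± 0.43 without and 1.305 ± 0.28 with fracture. The feedback inhibitor Usp18 changed by 3.64 ± 0.47 and 1.96 ± 0.31, and all 4 changes were called with edgeR. The receptor subunit Ifnar1 was called in both sexes over both fracture states, at 0.31 ± 0.06 in females (edgeR adjusted p = 0.00377) and 0.42 ± 0.07 in males (edgeR adjusted p = 0.000353).

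Sensors of other compartments were measured too. The counts below stand beside the shares of all genes called higher without fracture, with fracture and over both. These were 4.7%, 3.03% and 7.14% in males and 1.56%, 1.27% and 4.43% in females. A count of 1 in so short a list is not read as a result about the list. Of 14 genes of endosomal RNA sensing, 3 rose in males without fracture (Tlr3, Pld3 and Pld4), 1 with fracture (Pld4) and 4 over both (with Unc93b1), and Tlr7 did not pass without fracture (0.07 ± 0.16). In females 2 rose without fracture (Pld4, 0.34 ± 0.06, and Pld3, 0.68 ± 0.16), 1 with fracture (Pld4) and 3 over both (with Unc93b1). None of the 9 passed in females without fracture, but their log2 changes there were 0.15 to 1.42 (median 0.45), so the calls do not rank the changes. Of 9 genes of cytosolic DNA sensing, 1 rose in males without fracture (Trex1, a nuclease that degrades cytosolic DNA, 1.31 ± 0.24, edgeR adjusted p = 0.00178) and 1 with fracture (Trex1), and over both 3 rose (with Samhd1 and Enpp1) and Sting1 fell (−0.24 ± 0.07, edgeR adjusted p = 0.0243). In females 0, 0 and 2 rose (Samhd1 and Enpp1). The shares of the lists were not compared by a test.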

How the data were processed

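RNA-seq libraries of 32 sorted microglia samples were analysed, 15 female and 17 male. The authors deposited estimated counts for each transcript, given as whole numbers, with the sexes in separate files. The submitters' processing notes name Trim Galore (0.6.7), cutadapt (3.4), STAR (2.7.6a), RSEM (1.3.1), DESeq2 (1.34.0), R (4.1.3) and the build GRCm38, without saying which tool did what. The annotation release is not given in the sources used here. Each listed transcript has at least 10 counts in at least 8 female or 9 male libraries.

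Counts were summed by gene identifier and fitted per table in 1 model of 4 groups with edgeR (version 4.0.16, under R 4.3.3; TMM scaling, filterByExpr, which removed no gene, robust quasi-likelihood F test). Genes with a Benjamini-Hochberg adjusted p below 0.05 over all genes were called. TPM used GENCODE M21 transcript lengths, which matched 98.4% of transcripts. The script was tested on simulated counts. Transcript sequence shared with other genes was counted in 50-base stretches. Up to 4 called genes per list were named, by adjusted p, and the 5 genes per table most correlated with the members' mean; Mavs, Tbk1, Tlr7, single markers and the genes of small counts were chosen after their values were seen. Some genes that these rules name are not reported here. The members and lists were chosen with earlier results of these data known. Alternatives were other scalings, DESeq2 1.42.0, filters, the most abundant transcript, a replicate block, only the groups compared, V number subsets and left-out libraries.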

Additional observations from a re-analysis of the deposited data

Results flagged for a closer look

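Of 45 groups of 4 to 7 libraries examined (9 genes in 5 groups), 2 held a library far from the others; chance alone gives about 1 in 20, and the 9 genes are not independent. Both were resident female library 4 with fracture. Its Oas2 level was 79.9 CPM, against 25.9 to 33.6 CPM in the other 3, and its Ifih1 level was 50.9 CPM, against 39.6 to 41.1 CPM. With all 4 libraries, Oas2 changed by 2.00 with repopulation under fracture, and the range over fits that left out 1 library was 1.83 to 2.52, with edgeR adjusted p-values of 0.0821 to 0.261.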

How the results depend on the processing

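Most values kept their direction and side of the threshold. Counts of called members that moved by over 1.5 times were, in females with fracture, 3 with DESeq2 and 3 when only the 2 groups compared were fitted (0 in the 4-group fit), and 5 in repopulated microglia for fracture with only 2 groups. Without both resident libraries 1 and 3 they were 6 without fracture and 8 for the mean of both states. In males with fracture they were 0 within V numbers under 80 and 0 over 98, with fewer libraries. Without repopulated libraries 6 and 7, 6 were called for fracture and 5 for the interaction. Replicate numbers gave little sign of pairing, though with groups this small the check cannot exclude it. Correlations of deviations between same-numbered libraries were −0.312 to 0.211 in females (21 pairs, 3 over 0.1) and −0.078 to 0.05 in males (17 pairs). The fit with a replicate block called 2 members for fracture in male repopulated microglia, 3 for the interaction, 6 for male repopulation with fracture and 2 for the female mean of both states. The shares of all genes called in these block comparisons are not given here, so the counts cannot be weighed against them.

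Some signs turned. The Ifih1 female repopulation change with fracture was −0.01 with library totals and −0.01 with the most abundant transcript. With 1 library left out, the female interaction spanned −0.01 to 0.49 for Oas1a, −0.17 to 0.34 for Oasl2, −0.29 to 0.07 for Ifih1, −0.13 to 0.36 for Dhx58 and −0.18 to 0.12 for Eif2ak2. Male fracture changes spanned −0.75 to 0.07 for Oas3 in resident and −0.71 to 0.11 for Ifih1 in repopulated cells. Without female resident libraries 1 and 3 the interaction, 0.85 for Oas2 and 0.87 for Oas3 with all libraries, was −0.52 for Oas1a, −0.60 for Oas2, −0.53 for Oas3, −0.28 for Oasl1, −0.70 for Oasl2, −0.49 for Dhx58 and −0.33 for Eif2ak2. The cause was not tested.

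Scaling by library totals alone shifted the median of all genes to −0.11, −0.09 and −0.10 in females and −0.12, −0.05 and −0.09 in males (without fracture, with fracture, mean of both). It moved the share of higher among called genes from 61.8% to 33.7%, 54% to 28.5% and 52% to 28.2% in females and from 63.4% to 46.9%, 61.8% to 47.3% and 55.7% to 38.8% in males; the number of members called did not change. Of all genes, DESeq2 called 676 and 680 in the female repopulation comparisons without and with fracture, against 338 and 315, the block 143 and 184, and fits of only 2 groups 0 and 629. With 1 library left out, 51 to 612 and 106 to 233 were called, and 414 to 722 and 400 to 716 in males, against 890 and 589. For fracture DESeq2 called 4 and 89 genes in females and 12 and 39 in males (resident, repopulated). Low male counts of Oas2, Oas3 and Oasl1 in resident libraries limit those folds.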
